A study of Populus trichocarpa with 18 samples.

Results

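The comparison set 3 RNA-seq libraries of protoplasts transfected with PtrSND1-B1 together with sGFP against 3 libraries of protoplasts transfected with sGFP alone, all taken 25 h after transfection. These 6 libraries, chosen by their titles, were part of 18 that also covered 7 and 12 h. The protoplasts (cells freed of their walls) came from stem-differentiating xylem of greenhouse-grown Populus trichocarpa, a poplar, and took up DNA by the polyethylene glycol method. sGFP, a green fluorescent protein, was present in both groups, so the difference between them was the PtrSND1-B1 DNA. The labels give 3 replicate numbers for each construct and do not say whether these stand for separate plants or protoplast isolations. The main p-values measure how far differences between libraries of the same time and replicate number scatter, and that scatter may therefore be technical.

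PtrSND1-B1 belongs to the NAC family of plant transcription factors. In Arabidopsis, NAC proteins of the SND1 group act as switches high in the hierarchy that turns on the secondary cell wall, the cellulose, xylan and lignin layer of wood cells. They do so largely through MYB transcription factors, which in turn act on wall genes. The question put to these libraries was which transcripts change when PtrSND1-B1 is overexpressed in xylem cells.

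Counted on the first gene model of each locus, the PtrSND1-B1 libraries held 5123980, 2690853 and 3269149 reads for replicates 1, 2 and 3. The sGFP libraries held 13970708, 2736863 and 7818035 on the same models. Replicate 1 was thus the deepest pair. At 25 h the deviations of a library from its group mean correlated with those of the library of the same number in the other group, across 23777 genes, by 0.513, 0.510 and 0.658 for replicates 1, 2 and 3. The 2 constructs were therefore compared within replicate number, with a term for each pair of libraries of the same time and number. Identifiers in the file carry no gene names and 0 of them matched the RefSeq table, so the labelled tissue was not set against marker genes and no pathway lists were applied.

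POPTR_0014s10060.1, taken as the transfected gene partly from its rise, had 1582, 736 and 418 CPM (reads scaled to a common library size) in PtrSND1-B1 replicates 1, 2 and 3, against 2.09, 3.10 and 2.09 CPM in sGFP replicates 1, 2 and 3. Every PtrSND1-B1 library stood far above every sGFP library, and replicate 1 was the highest and replicate 3 the lowest among them. Its log2 fold change within pairs was 8.84 (SE 0.37, adjusted p = 2.68e-09, edgeR quasi-likelihood test). Since the rise helped to pick this gene, these values describe it and do not test its identity. Reads of the introduced and the chromosomal copy were counted together. In bulk RNA, a larger share of transfected cells and more transcript per cell cannot be told apart, and the same holds for fewer cells of a type and less RNA per cell.

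**Figure D1:**
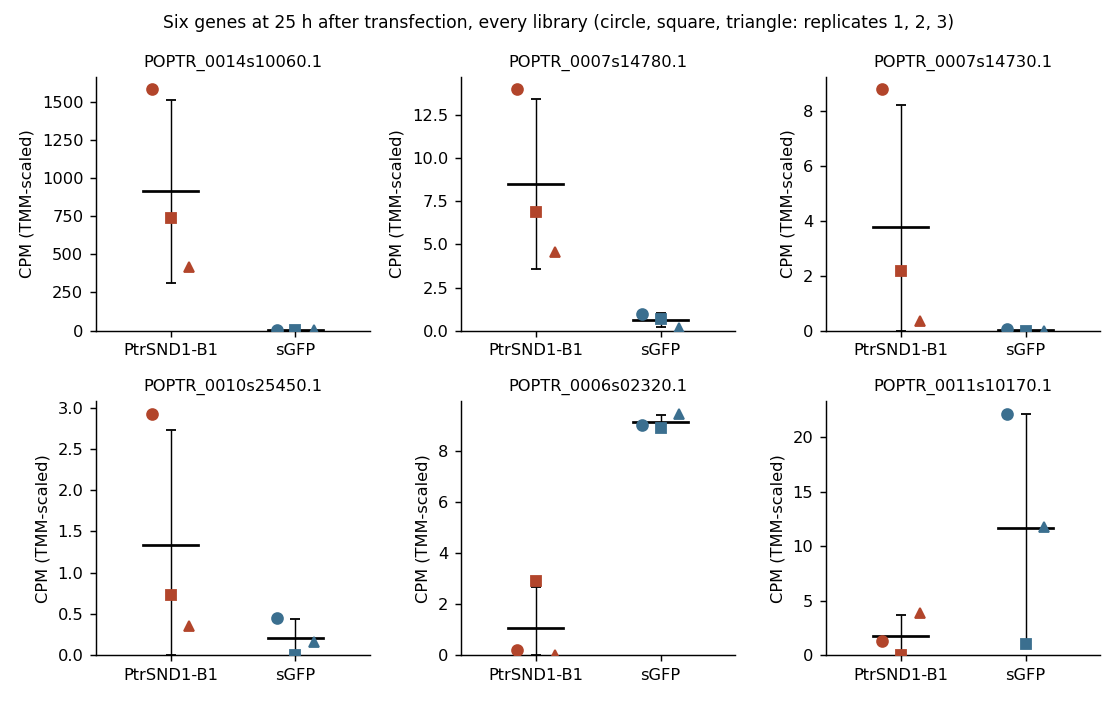
CPM of 6 genes in every library at 25 h, with PtrSND1-B1 libraries on the left of each panel and sGFP libraries on the right. Lines are means, bars are SDs of 3 libraries cut at 0, and circles, squares and triangles are replicates 1, 2 and 3. POPTR_0014s10060.1, taken as the transfected gene, reached 418 to 1582 CPM in PtrSND1-B1 libraries, and POPTR_0006s02320.1 stayed near 9 CPM in all sGFP libraries.

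At 25 h, 37 genes were higher and 68 were lower in PtrSND1-B1 than in sGFP protoplasts at a Benjamini-Hochberg adjusted p under 0.05, which is 0.156% and 0.286% of the 23777 genes tested and 0.442% for both directions together. These counts hold for the comparison within pairs. Without a block the transfected gene was the 1 gene called (0.00421% of the genes tested), and with the replicate number as an additive block 2 genes were called (0.00841%). The count also depended on which pair was left out. It was 2 after dropping replicate 1, 63 after dropping replicate 2 and 384 after dropping replicate 3. With the 25 h libraries alone, 2 genes passed. On simulated counts this fit called more unchanged genes than its threshold allows for, so false calls among the 105 may exceed the nominal share.

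**Figure D2:**
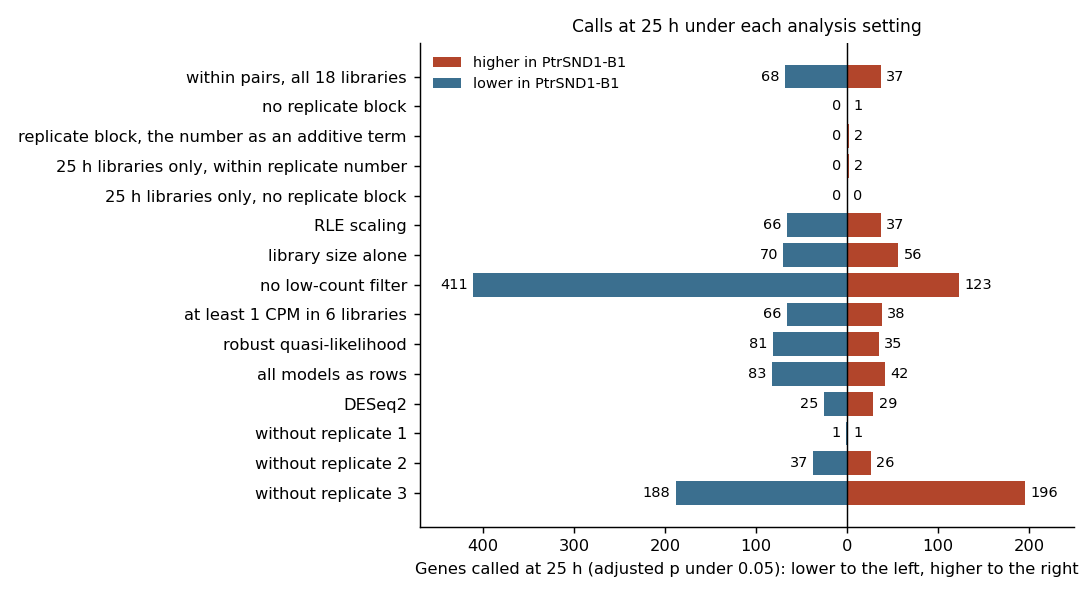
Number of genes called at 25 h under each analysis setting, with genes lower in PtrSND1-B1 to the left of 0 and higher ones to the right. The within-pairs counts of 37 higher and 68 lower became 1 and 1 without the replicate 1 pair and 196 and 188 without the replicate 3 pair.

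Besides the transfected gene, 36 genes rose. Their log2 fold changes were 0.48 to 6.39 with a median of 1.71, against a median of -0.01 over all genes tested. At least a 2-fold rise was seen for 25 of them and at least a 4-fold rise for 16. PtrSND1-B1 exceeded sGFP in all 3 pairs for 35 of the 36, where 12.7% of all genes tested did so. The 3 PtrSND1-B1 libraries lay above all 3 sGFP libraries for 24 of them, where 1.99% of all genes did. The rises were chosen by this same contrast, so these shares describe them and test nothing. Read support was thin for some: 18 of the 36 averaged under 10 CPM over the 6 libraries, and 3 had at most 3 reads in the sGFP libraries together.

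The rises differed in size between pairs. Their median difference was 1.97 on the log2 scale in replicate 1, 1.19 in replicate 2 and 0.97 in replicate 3 (mean 1.38 ± 0.52, SD, n = 3 pairs). These differences use log2 CPM with a prior count of 2, which shrinks them where reads are few. The replicate 3 median equals the value of POPTR_0007s14730.1, which had 1 read against 0 there. How far this shrinkage shapes the order of the pairs was not tested. The difference was largest in replicate 1 for 25 of the 36 genes and smallest in replicate 3 for 22. Transfected transcript had the same order, with 1582, 736 and 418 CPM. With 3 pairs a relation between these values was not tested.

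**Figure D3:**
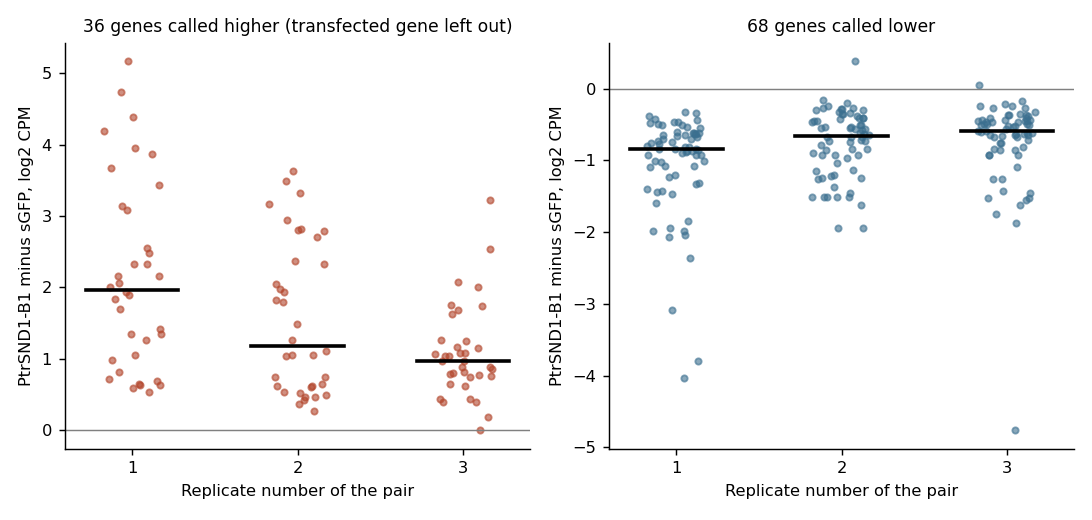
Difference in log2 CPM (prior count 2) between a PtrSND1-B1 library and the sGFP library that shares its replicate number, for the 36 other genes called higher (left) and the 68 called lower (right). Each point is a gene and each black line the median over genes. The medians were 1.97, 1.19 and 0.97 for the rises and -0.84, -0.66 and -0.59 for the falls in replicates 1, 2 and 3.

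POPTR_0007s14780.1 had 14, 6.91 and 4.55 CPM in PtrSND1-B1 replicates 1, 2 and 3, against 0.972, 0.688 and 0.161 CPM in sGFP replicates 1, 2 and 3. The groups did not overlap. Its log2 fold change was 3.84 (SE 0.30, edgeR adjusted p = 1.41e-05). The pair differences in log2 CPM, shrunk by the prior count of 2, were 3.43, 2.79 and 3.23. Besides the transfected gene it was the 1 gene still called when the number entered as an additive block (adjusted p = 2.88e-05). The call was lost with no block (adjusted p = 0.399) and on dropping the replicate 1 pair (adjusted p = 0.0634), where the log2 fold change was 3.89.

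POPTR_0007s14730.1 had the largest rise after the transfected gene, and its number lies close to that of POPTR_0007s14780.1. It had 8.80, 2.18 and 0.350 CPM in PtrSND1-B1 replicates 1, 2 and 3, against 0.0748, 0 and 0 CPM in sGFP replicates 1, 2 and 3. All 3 PtrSND1-B1 libraries were above the sGFP libraries, but the value in replicate 3 came from 1 read. The PtrSND1-B1 libraries held 49 reads and the sGFP libraries 1, and per scaled read the ratio was 106, with 18.2 and 4278 as the 95% bounds from counting error. The fitted log2 fold change was 6.39 (SE 1.01, edgeR adjusted p = 0.0112), a value that depends on the prior count, and it did not pass without the replicate 1 pair (adjusted p = 0.759). Its level in PtrSND1-B1 protoplasts was 51.3 ± 15.0 CPM at 7 h, 18.5 ± 5.95 CPM at 12 h and 3.78 ± 4.44 CPM at 25 h (SD, n = 3).

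POPTR_0010s25450.1 had 2.93, 0.728 and 0.350 CPM in PtrSND1-B1 replicates 1, 2 and 3, against 0.449, 0 and 0.161 CPM in sGFP replicates 1, 2 and 3. The groups overlapped, and the log2 fold change of 2.54 (SE 0.62) did not pass (edgeR adjusted p = 0.12). It passed in 2 of 18 alternatives, on dropping the replicate 3 pair (adjusted p = 0.0401) and with no low-count filter (adjusted p = 0.00599). Its effect was 7.06 at 7 h (adjusted p = 2.71e-06) and 4.78 at 12 h (adjusted p = 0.000105). The difference between 25 and 7 h, -4.52 on the log2 scale, did not pass (adjusted p = 0.237).

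The 68 falls had a smaller median size than the rises. Their log2 fold changes ran from -0.36 to -3.40 with a median of -0.76, and 18 of them were at least 2-fold, 5 at least 4-fold and 20 under 1.5-fold. PtrSND1-B1 was below sGFP in all 3 pairs for 66 of the 68, where 13.6% of all genes were. The libraries of the groups did not overlap for 15 of them, where 2% of all genes lay lower in this way. Median differences were -0.84, -0.66 and -0.59 in replicates 1, 2 and 3 (mean -0.70 ± 0.13, SD, n = 3 pairs), which is the same order as for the rises. Without the replicate 1 pair the median of the fitted falls was -0.60.

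POPTR_0006s02320.1 had the largest fall. It had 0.209, 2.91 and 0 CPM in PtrSND1-B1 replicates 1, 2 and 3, against 9.05, 8.94 and 9.49 CPM in sGFP replicates 1, 2 and 3. The sGFP libraries were close to each other and all above the PtrSND1-B1 libraries, among which replicate 2 stood apart from the other two. The log2 fold change was -3.40 (SE 0.64, edgeR adjusted p = 0.0349), and the call was lost with no block (log2 fold change -3.29, adjusted p = 1) and on dropping the replicate 1 pair (-2.73, adjusted p = 0.437). On dropping the replicate 2 pair the fitted value was -5.94 (adjusted p = 0.0182). At 12 h this gene had 0 reads in all 3 PtrSND1-B1 libraries and 3.28 ± 2.03 CPM in sGFP libraries (SD, n = 3), and at 7 h it had 4.59 ± 5.53 CPM in PtrSND1-B1 and 5.86 ± 2.40 CPM in sGFP libraries.

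POPTR_0011s10170.1 had the next largest fall, with 1.26, 0 and 3.85 CPM in PtrSND1-B1 replicates 1, 2 and 3, against 22.1, 1.03 and 11.7 CPM in sGFP replicates 1, 2 and 3. The groups overlapped, because sGFP replicate 2 lay below 2 of the PtrSND1-B1 libraries, yet PtrSND1-B1 was lower inside each pair. Its log2 fold change was -2.99 (SE 0.46, edgeR adjusted p = 0.00964), against -1.72 on dropping the replicate 1 pair (adjusted p = 0.585) and -4.14 on dropping the replicate 3 pair (adjusted p = 0.000153). With no block it was -2.86 (adjusted p = 1).

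POPTR_0011s10170.1 was 1 of 8 consecutively tested identifiers that were all called lower, by -0.87 to -2.99 on the log2 scale. Such runs, taken as called genes of the same direction whose numbers differ by at most 50 on the same scaffold code, held 23 of the 68 falls in 7 runs and 8 of the 36 other rises in 4 runs. POPTR_0007s14730.1 and POPTR_0007s14780.1 formed 1 of these 4. Close copies can share reads, and how the authors counted such reads is not given in the sources used here. In 7 pairs of called identifiers, 14 identifiers in all, counts agreed within 10% in at least 9 of the 18 libraries. Falls made up 12 of these 14, and 68 of the 104 called identifiers without the transfected gene. The counts of 36 and 68 may therefore hold fewer separately measured transcripts than identifiers. Within these 7 pairs, counts were exactly equal in 0 to 15 of the 18 libraries. The value of 0 belongs to POPTR_0002s10850.1 and POPTR_0018s10460.1, and that of 15 to POPTR_0013s12560.1 and POPTR_0013s12600.1. Whether any pair shared reads was not tested. Shares of runs and of agreeing pairs over all genes tested are not given here. The definitions of a run and of agreeing counts were chosen after the values were seen.

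The same genes were then followed at the earlier times, whose libraries are separate from those at 25 h but share the fit. The spread of a gene was estimated over all times together, so a low estimate favours calls at each of them. The shares called at 7 and 12 h are therefore no independent replication. Of the 36 other rises, 20 were also called higher at 7 h (1.56% of all genes tested) and 23 at 12 h (0.488% of all genes tested), 19 of them at both. Those 19 had median log2 fold changes of 1.58 at 7 h, 2.12 at 12 h and 2.27 at 25 h. A further 12 were called at neither time, with medians of 0.25, 0.37 and 1.02. The fold change grew from 7 to 12 to 25 h for 19 of the 36 and shrank over both steps for 3, POPTR_0007s14780.1 being among the 3 with 5.61, 4.05 and 3.84. Since the genes were chosen at 25 h, larger values there can follow from the choice. The effect itself differed between 25 and 7 h for 0 of the 36 by edgeR's test (smallest adjusted p = 0.0735), where 0.0673% of all genes tested did, and for 1 of the 36 by DESeq2. At an unadjusted p under 0.05 it differed for 19 of the 36, where 7.91% of all genes did. Between 25 and 12 h it differed for 0 by either tool (smallest adjusted p = 0.409 in edgeR), and for 14 at an unadjusted p under 0.05, where 5.21% of all genes did. The choice of genes at 25 h favours such differences, so nothing is read from these shares. The 12 genes called at 25 h and at no earlier time are therefore not shown by edgeR's test to respond differently at 25 h.

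Of the 68 falls, 34 were called lower at 7 h (1.86% of all genes tested) and 36 at 12 h (0.774% of all genes tested), 30 at both. The spread estimate shared by all times bears on these shares too. The medians of those 30 were -0.84, -0.80 and -0.80 at 7, 12 and 25 h. Another 28 were called at neither earlier time and had medians of -0.07, -0.24 and -0.62. None of the rises or falls was called in the opposite direction at 7 or 12 h. Of all genes tested, 1.56% and 0.488% were called higher at 7 and 12 h, and 1.86% and 0.774% lower. A count of 0 in sets of this size is near these shares, so nothing is read from it. Among the falls 0 differed in effect between 25 and 7 h by edgeR or DESeq2 (smallest edgeR adjusted p = 0.147, with 34 of 68 at an unadjusted p under 0.05, against 7.91% of all genes). Likewise 0 differed between 25 and 12 h by either tool (smallest edgeR adjusted p = 0.397, with 25 of 68 at an unadjusted p under 0.05, against 5.21% of all genes).

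**Figure D4:**
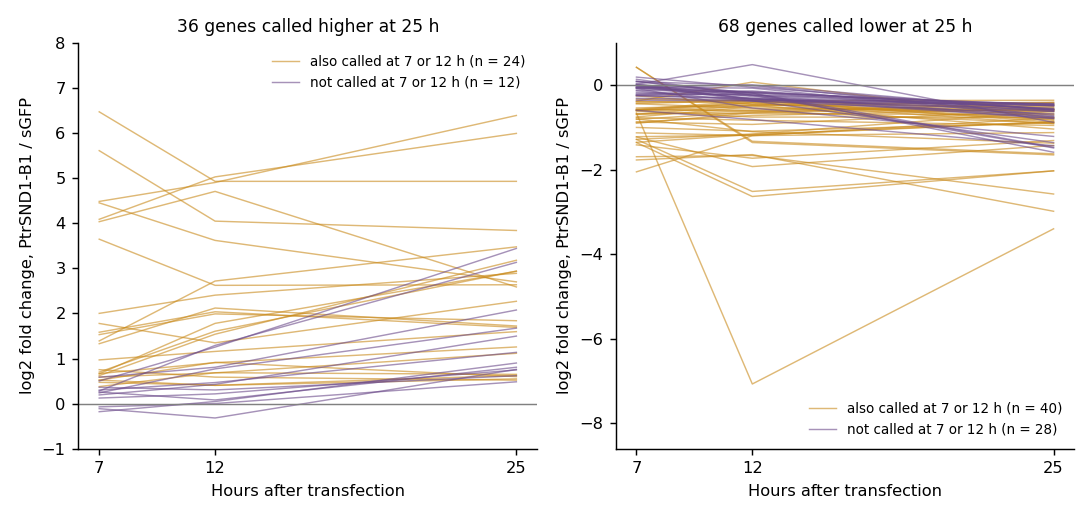
Log2 fold change of PtrSND1-B1 over sGFP at 7, 12 and 25 h for the 36 other genes called higher (left) and the 68 called lower at 25 h (right), a line per gene. Genes called at 7 or 12 h as well (24 rises and 40 falls) are in yellow and the others in purple. The line that drops near -7 at 12 h is POPTR_0006s02320.1, which had 0 reads in PtrSND1-B1 libraries there, so that fitted value is no exact fold.

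For most of the genes called higher at 25 h, levels in sGFP protoplasts were lower at each later time. The median of the 36 in PtrSND1-B1 protoplasts was 5.24 ± 0.40 log2 CPM at 7 h, 4.77 ± 0.43 at 12 h and 3.80 ± 0.39 at 25 h (SD, n = 3 libraries). In sGFP protoplasts it was 4.38 ± 0.51, 3.28 ± 1.05 and 1.96 ± 0.73 at the same times. Single genes differed: the mean in sGFP protoplasts was lower at each later time for 27 of the 36 and higher at each later time for 4. Shares over all genes tested are not given here for these counts. The choice of genes at 25 h favours a low sGFP level there, and so the last step of this order. Under both constructs the mean of the set median was thus lower at each later time, and at each time it was higher with PtrSND1-B1. The libraries at 25 h were used to choose these genes, so the levels at 25 h are a description. The median over all genes tested was 3.74 to 3.82 log2 CPM in each of the 6 groups.

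The step from 7 to 12 h compares no library at 25 h, but filter, scaling and spread came from all 18 libraries. With the 25 h libraries alone the filter kept 29 of the 37 rises, so the others passed only with earlier libraries included. The shares for the step from 7 to 12 h therefore describe these genes and are no independent test. Over this step the median of the 36 rises changed by -0.96, -0.12 and -0.35 in PtrSND1-B1 replicates 1, 2 and 3, and by -1.46, -1.36 and -0.47 in sGFP replicates 1, 2 and 3. All 6 values were below 0, and in each replicate the sGFP value was the lower. In sGFP protoplasts 13 of the 36 genes were called lower at 12 than at 7 h with the replicate number as a block, where 3.56% of all genes tested were, and 2 were called higher (2.89%). Their median log2 change was -0.95, against a median of -0.003 over all genes. Without a block 0 of the 36 passed over this step in either direction by edgeR's test, where 0.0799% of all genes were lower and 0.151% higher. At an unadjusted p under 0.05, 10 of the 36 were lower and 2 higher in that fit, against 6.12% and 6.06% of all genes. This test was added after the values were seen.

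The falls were followed in the same way. Their median level in PtrSND1-B1 protoplasts was 4.65 ± 0.47 log2 CPM at 7 h, 4.71 ± 0.22 at 12 h and 4.70 ± 0.43 at 25 h (SD, n = 3 libraries), and in sGFP protoplasts 5.00 ± 0.39, 5.16 ± 0.28 and 5.38 ± 0.48. The 25 h libraries chose these genes too. From 7 to 25 h the set median changed by 0.39, -0.37 and 0.14 in PtrSND1-B1 replicates 1, 2 and 3, and by 0.70, 0.08 and 0.35 in sGFP replicates 1, 2 and 3. In sGFP protoplasts the mean was higher at each later time for 28 of the 68 and lower at each for 24. Shares over all genes tested are not given here for these counts either, and the choice at 25 h bears on them. Over the step from 7 to 12 h, 15 of the 68 were called lower in sGFP protoplasts with the number block (3.56% of all genes) and 4 higher (2.89%), with a median log2 change of -0.10. Without a block 1 was called lower (0.0799%) and 0 higher (0.151%) by edgeR's test, with 13 lower and 8 higher at an unadjusted p under 0.05 (6.12% and 6.06% of all genes).

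**Figure D5:**
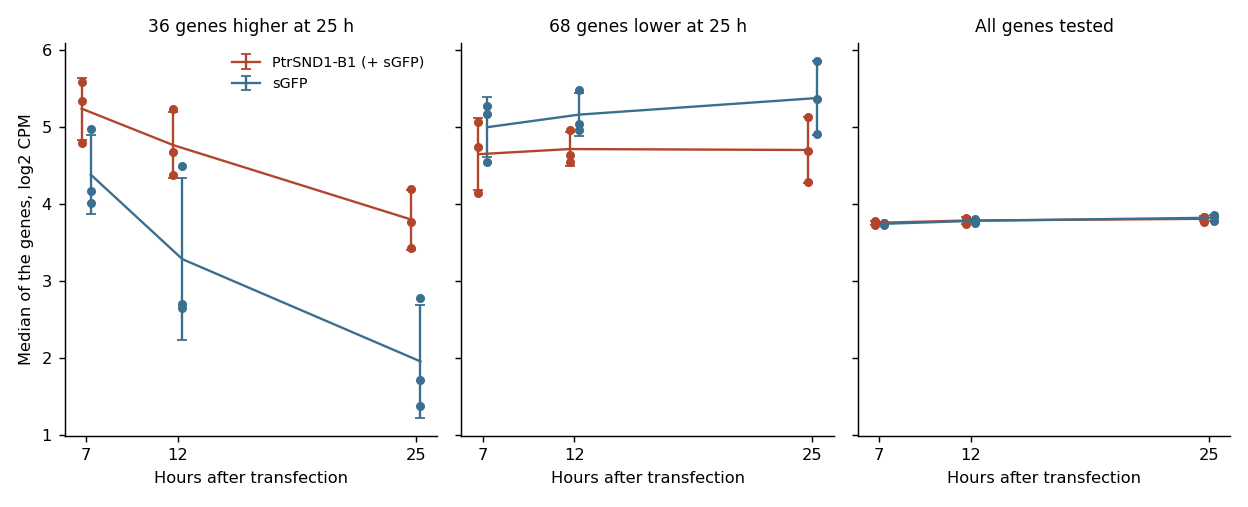
Median log2 CPM (prior count 2) of the 36 other genes higher at 25 h, the 68 lower at 25 h and all genes tested, in each library at 7, 12 and 25 h. Points are libraries, lines join the means of 3 libraries and bars are SDs, with PtrSND1-B1 in red and sGFP in blue. For the 36 genes the means at 7, 12 and 25 h were 5.24, 4.77 and 3.80 in PtrSND1-B1 and 4.38, 3.28 and 1.96 in sGFP protoplasts, while the median over all genes stayed between 3.74 and 3.82.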

How the data were processed

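The deposited file holds raw counts, whole numbers of reads per gene model, in a column for each of 18 libraries. TopHat and edgeR appear in the submitters' processing notes, with no role stated. A genome build, an annotation, a counting tool and a strand setting were not given in the sources used here. Values of close copies, overlapping genes and antisense partners are therefore uncertain. The first model of each of 40668 loci was used. In R 4.3.3 with edgeR 4.0.16, genes were kept by filterByExpr over the 6 groups and scaled by TMM. A quasi-likelihood model was fitted to all 18 libraries with a term for each pair of time and replicate number and a construct effect per time (6 residual degrees of freedom). P-values were adjusted by Benjamini-Hochberg over all 23777 genes. SE is the log2 fold change divided by the square root of F. Log2 CPM used a prior count of 2, and intervals are exact binomial ones that cover counting error only. DESeq2 1.42.0 was an alternative, as were other scalings and filters and leaving out libraries. The fit was tested on simulated data, where it recovered most changed genes and made more false calls than the threshold allows for. Changed genes there lay above a minimum of reads and moved 2-fold or 4-fold, with the spread taken from the fit itself. Recovery of genes with fewer reads or smaller changes was not tested.

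The comparison is defined within replicate number, and fits with no block and with the number as an additive term were alternatives. The labels do not say what a number marks. The pairing comes from the data: the 9 pairs of a time and number had deviations correlated by 0.345 to 0.752, all above 0.1. The common coefficient of variation was 7.9% within pairs, 19.2% with the number block and 29% without a block. The rule for named genes took the transfected gene, POPTR_0007s14780.1 and POPTR_0010s25450.1, which earlier results had singled out, and the largest rises and falls among called genes with the same sign in all 3 pairs and a mean of at least 1 CPM. Since no names matched, it was cut to 2 identifiers that rose and 2 that fell, besides the transfected gene and POPTR_0010s25450.1, which did not pass. The 2 that rose, POPTR_0007s14730.1 and POPTR_0007s14780.1, ranked 1 and 3 by size. Rank 2, POPTR_0010s18510.1 (log2 fold change 4.93, edgeR adjusted p = 0.0042), was left out. The 22 lists by function, prepared from product names, and the cell type markers could not be matched and were not used. The genes and tests were chosen with earlier results of these data known.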

Additional observations from a re-analysis of the deposited data

Results flagged for a closer look

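The PtrSND1-B1 effect differed between 25 and 7 h for 16 genes (0.0673% of those tested, edgeR adjusted p under 0.05). For 14 of them it was lower at 25 h, with log2 fold changes of -0.51 to 0.69 at 25 h and of 0.35 to 5.28 at 7 h. At 25 h 0 of the 16 were called, where 0.442% of all genes tested were, so nothing is read from this count. The 16 were chosen by that difference. Between 25 and 12 h 0 genes differed by edgeR's test, with 1239 at an unadjusted p under 0.05 and 0 by DESeq2.

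Gene models beyond the first of a locus were outside the comparison. With every model tested separately, 13 of the 3676 such models tested were called at 25 h. In the main comparison, 105 of 23777 first models were called. For 0 of the 13 was the first model of the locus not called.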

How the results depend on the processing

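The count of 105 genes called at 25 h (37 higher, 68 lower) was within 1.5 times with RLE scaling, library size alone, a filter of 1 CPM in 6 libraries, robust estimation and all models tested, except that library size alone gave 56 higher. In that order, 103 of 103, 100 of 126, 103 of 104, 86 of 116 and 105 of 125 calls were among the 105. The list of genes thus moved more than the count with robust estimation. The no replicate block fit called 1 (1 higher, 0 lower), the replicate block with the number 2 (2 and 0), the 25 h libraries alone 2 (2 and 0) within number and 0 with no block, DESeq2 54 (29 and 25) and no low-count filter 534 (123 and 411). Leaving out a replicate pair gave totals of 2 to 384, with 1 to 196 higher and 1 to 188 lower. With no block, leaving out a library gave 1 call each time (1 higher, 0 lower). The 2 calls without the replicate 1 pair and 99 of the 384 without the replicate 3 pair were among the 105; the cause was not tested. The 16 differences between 25 and 7 h became 0 with no block, with or without a library left out. They became 1 with the number block, 8 with RLE, 31 with library size alone and 37 with robust estimation. With no filter they became 319, and on leaving out a replicate pair 6 to 409. The 0 between 25 and 12 h became 28 with no filter and 0 to 126 on leaving out a replicate pair.

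The transfected gene passed in 19 of 20 alternatives (adjusted p = 0.0514 with the 25 h libraries alone and no block), POPTR_0007s14780.1 in 11 of 20 and POPTR_0007s14730.1 in 8 of 18. POPTR_0006s02320.1 and POPTR_0011s10170.1 each passed in 8 of 20. No direction of a named gene turned. With robust estimation the adjusted p was 0.128 for POPTR_0007s14730.1, 0.346 for POPTR_0006s02320.1 and 0.0579 for POPTR_0011s10170.1. POPTR_0010s25450.1, which did not pass, passed in 2 of 18. All 37 rises and 68 falls tested kept their sign except in 2 fits without a block: 36 of 37 rises did on leaving out PtrSND1-B1 replicate 3 and 65 of 68 falls on leaving out sGFP replicate 1; the genes were chosen from the same pairs, so this sign is largely fixed by the choice. The low-count filter left 8 of the 37 rises untested with the 25 h libraries alone.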
